A study of Mus musculus with 45 samples.

Results

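Interstitial macrophages (IM), the macrophages of the lung tissue between the airspaces and the blood vessels, were sorted from lungs of C57BL/6J mice 6h and 20h after intraperitoneal (ip) lipopolysaccharide (LPS), and their messenger RNA was sequenced from low cell input. The comparison asks which transcripts moved as the response to LPS passed from 6h to 20h. It rests on 4 of the 45 libraries of the series, taken by their titles alone: A161219 and N160623 at 6h, and A161219 and B161219 at 20h. Each code is the letter and number that end a title, with N for a title that has no letter, and pairs of values below follow this order. IM before LPS (0h, A171227 and B171227) and at 2h (A161219 and N160623), and inflammatory monocytes (iMo) and alveolar macrophages (AM) at 6h and 20h after ip LPS, serve as reference. All groups are of the same strain, and the labels name no other allele or agent and give no LPS dose, age or sex. Neither do they say whether replicates were separate animals, so a p-value here speaks of how far these libraries lie apart, which may be technical. Of 23594 genes on the table, 8937 with at least 5 TPM (a length-scaled share of a library's reads) in at least 2 of the 27 libraries of 0h and ip were tested.

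LPS is the outer-membrane lipid of Gram-negative bacteria and is sensed by TLR4, which turns on cytokine and chemokine genes through NF-kB and, through type I interferon, a broad set of antiviral genes. The same signals induce their own brakes, among them SOCS proteins, the ubiquitin-editing enzyme A20 and MAP kinase phosphatases. IM are known for complement C1q, MHC class II and the fractalkine receptor Cx3cr1, and a perivascular subset carries Folr2 and Lyve1.

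The 4 libraries differed in composition. Column sums ran from 394430 to 495387 TPM and 4913 to 6667 genes reached 5 TPM. TPM keeps no read depth. Rn45s, a ribosomal RNA precursor, held 6.05 and 33.32% of the sum at 6h and 12.91 and 11.3% at 20h, so N160623 stood apart. Pearson r of log2(TPM+1) across genes was 0.968 between the 6h libraries, 0.978 between the 20h libraries and 0.938 to 0.958 across times.

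The label was checked against IM markers and against markers of other lung cells. Mean log2(TPM+1) of 23 IM markers was 7.40 and 7.16 at 0h, 3.74 and 3.84 at 6h and 4.572 and 4.725 at 20h. The list was thus far below its 0h level at both times. Csf1r, the receptor for the macrophage growth factor CSF1, was at 129 and 89.3 TPM at 6h and at 194 and 264 TPM at 20h, against 186 and 209.9 TPM at 0h. Lyve1, at 107 and 105 TPM at 0h, was at 1.16 and 3.33 TPM at 6h and at 0.338 and 1.48 TPM at 20h. Fcrls was at 2.03 and 0.560 TPM and then at 0.222 and 0.387 TPM, so these 2 markers were near 0 at both times. Transcripts of the neutrophil list were abundant. Its 22 markers summed to 80200 and 25089 TPM at 6h and to 34602 and 41685 TPM at 20h, led by S100a8 (28641 and 8503, then 13241 and 16910 TPM). At 0h they summed to 23480 and 11959 TPM. The list also holds Lcn2, which is among the acute-phase proteins below. How far these transcripts came from neutrophils was not tested. The highest sum was that of 6h A161219. Of 20 neutrophil markers tested, 1 was lower at 20h (Stfa1) and none higher, and the median log2 change was -0.77. Mean log2(TPM+1) of 21 AM markers was 2.96 and 4.13 at 6h and 2.78 and 3.41 at 20h, highest in 6h N160623. Endothelial markers, which summed to 728 and 1055 TPM at 0h, summed to 21.9 to 56.4 TPM in the 4 libraries of 6h and 20h.

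From 6h to 20h, genes called lower in IM included the chemokines Cxcl1, Cxcl2 and Cxcl3, 4 of 15 cytokines tested and 6 of 42 type I interferon-stimulated genes, and genes called higher included 23 of 29 genes of DNA replication. A gene was called at an adjusted p under 0.05 (limma, Benjamini-Hochberg over all 8937 genes). By that rule 420 genes, 4.7%, were called: 320 were higher at 20h (3.58%) and 100 lower (1.12%). At an unadjusted p under 0.05 there were 2108. The median of all genes was 0.415 higher at 20h on the log2(TPM+1) scale. That median is subtracted from every log2 change below, but not before testing, so a gene said to have risen or fallen did so on the unshifted scale. Quantile normalization gave 336 genes higher and 349 lower, and the title code as a covariate 298 higher and 194 lower; of the 4 libraries only 6h N160623 carries its code. The libraries of the 2 times did not overlap in 5312 genes (59.4%), so separation of the 4 values is common in this comparison. In bulk RNA, fewer cells of a type and less RNA per cell cannot be told apart. Leaving out 1 library gave 71 calls without 6h A161219, 106 without 6h N160623 (39 higher and 67 lower), 125 without 20h A161219 and 13 without 20h B161219. With the neutrophil marker score of each library as a covariate, 499 genes were called, of which 376 were among the 420.

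**Figure D1:**
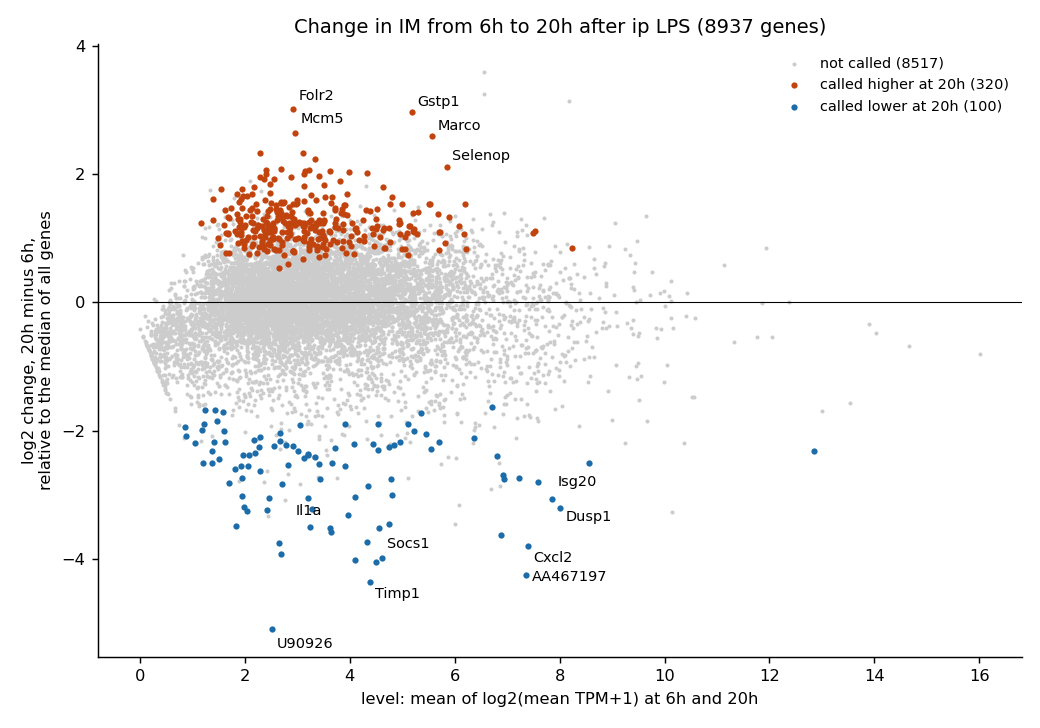
Change of each of 8937 genes in IM from 6h to 20h (log2, relative to the median of all genes) against its level (mean of log2 TPM+1 at both times). Orange points are the 320 genes called higher at 20h and blue points the 100 called lower; the blue points reach further from 0 than the orange ones, and U90926, listed at 0 TPM at 20h, has a position that depends on the added 1 TPM.

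Of 6 listed chemokines that draw neutrophils, Cxcl1, Cxcl2 and Cxcl3 passed the filter on low values and fell, and Cxcl5, Ppbp and Cxcl15 were too low to be tested. Cxcl2 was at 559 and 519 TPM at 6h and at 60.4 and 42.0 TPM at 20h, against 941 and 728 TPM at 2h and 33.2 and 23.4 TPM at 0h. Its 6h libraries were close to each other, below both of 2h and far above those of 20h. The log2 change was -3.81 (SE 0.60, limma adjusted p = 0.00301). Cxcl1 went from 5.69 and 40.0 TPM to 0.466 and 0.813 TPM (log2 change -3.76, adjusted p = 0.00801). Cxcl3 went from 13.6 and 154 TPM to 3.04 and 4.55 TPM (-3.74, adjusted p = 0.0465), so for both the 6h N160623 library was by far the higher of its pair. With no filter 2 of the 6 were called lower. With the filter 3 were, against 1.12% of all genes; 3 remained called without 6h A161219, 1 without 6h N160623, 1 without 20h A161219 and none without 20h B161219. The mean log2(TPM+1) of the 3 was 5.25 and 7.22 at 6h and 2.84 and 2.92 at 20h, next to 2.96 and 2.71 at 0h.

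The promoters of these chemokines are shown because they share a sequence. The 250 bases before each RefSeq start site (GRCm38.p6) were searched on both strands for the NF-kB motif, spelled GGGA, any base and TTTCC, or GGGAA and TTCCC, or GGG, any base and TTTTCC, without gaps. It was found in Cxcl1, Cxcl2 and Cxcl3, in 9.6% of the 83 called-lower genes that have a window, in 0.8% of the 7082 tested genes that have one and in 0.7% of all 32851 windows of that length. The 160 bases before the start site follow, 5′ to 3′, with the motif in capitals.
Cxcl1, chr5:90891085-90891244, plus strand: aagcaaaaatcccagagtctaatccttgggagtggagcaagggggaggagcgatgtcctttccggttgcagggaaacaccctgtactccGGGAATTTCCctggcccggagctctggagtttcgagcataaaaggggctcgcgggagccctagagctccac
Cxcl2, chr5:90903739-90903898, plus strand: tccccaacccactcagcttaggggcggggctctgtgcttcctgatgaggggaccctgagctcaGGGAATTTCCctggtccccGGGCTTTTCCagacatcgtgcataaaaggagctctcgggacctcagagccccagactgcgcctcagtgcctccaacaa
The first match began 71 bases before the start site in Cxcl1 and 97 in Cxcl2. A match is a description of letters and not a measurement of binding.

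Of 15 proinflammatory cytokines tested, 4 fell, none rose and 11 did not pass, with a median log2 change of -1.70. Over all genes, 1.12% were called lower. Il1a, an alarmin cytokine, was at 28.3 and 57.2 TPM at 6h and at 4.03 and 5.07 TPM at 20h (log2 change -3.32, adjusted p = 0.00865). Edn1, the vasoconstrictor endothelin-1, was at 18.4 and 8.85 TPM and then at 0.824 and 1.08 TPM (-3.24, adjusted p = 0.00049). Csf3, the granulocyte growth factor, and Il6 changed by -2.17 and -2.15. In all 4 the 20h libraries lay below both 6h libraries, where 59.4% of all genes had no overlap, both directions together. Tnf, the early macrophage cytokine, was at 89.6 and 51.4 TPM at 6h and at 24.8 and 29.8 TPM at 20h, and did not pass (log2 change -1.70, adjusted p = 0.106). Il1b was at 2500 and 497 TPM and then at 722 and 787 TPM, so its 20h libraries lay between the 6h ones. Leaving out 1 library gave 2, 3, 1 and 1 cytokines called, in the order 6h A161219, 6h N160623, 20h A161219 and 20h B161219.

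Of 18 CC and lymphocyte-attracting chemokines, 3 were lower and none higher (median -0.82), against 1.12% of all genes called lower. Ccl3, an inflammatory chemokine, was at 2145 and 1393 TPM at 2h, 620 and 287 TPM at 6h and 69.4 and 90.8 TPM at 20h (log2 change from 6h to 20h -2.81, adjusted p = 0.0216). It was still above its 0h values of 9.69 and 11.2 TPM. Ccl17, a CCR4 ligand, went from 69.2 and 84.3 TPM to 7.77 and 9.04 TPM (-3.46, adjusted p = 0.0379), and Cxcl11, a CXCR3 ligand, changed by -2.39. Ccl5 went from 4490 and 1827 TPM to 454 and 346 TPM, just outside the threshold (-3.26, adjusted p = 0.0544). Cxcl10 went from 1118 and 227 TPM to 89.2 and 109 TPM (adjusted p = 0.194). Ccl2, the ligand that draws CCR2 monocytes, was at 186 and 147 TPM at 6h and at 220.0 and 239 TPM at 20h, so the lists' members did not move as one. Without 20h A161219 or 20h B161219 none of the 18 was called, and without 6h A161219 1 was.

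A few brakes on the response fell, while most of those tested did not pass. Over all genes, 1.12% were called lower. Socs1, the JAK-STAT inhibitor, was at 139 and 41.8 TPM at 6h and at 6.58 and 4.60 TPM at 20h (log2 change -3.98, SE 0.84, adjusted p = 0.0200). With Cish it made 2 of 9 SOCS and IRAK brakes, and none of the 9 was higher. The count was 0, 1, 0 and 0 without 6h A161219, 6h N160623, 20h A161219 and 20h B161219. Tnfaip3, which encodes A20, was at 456 and 293 TPM at 2h, 129.5 and 54.3 TPM at 6h and 20.0 and 24.5 TPM at 20h (-2.29, adjusted p = 0.0210), the only call among 18 NF-kB subunits and feedback inhibitors, where the left-out libraries gave 0, 2, 0 and 0. Dusp1, a MAP kinase phosphatase, went from 844 and 532 TPM to 89.2 and 102 TPM (-3.21, adjusted p = 0.00116) and was the only call among 10 mRNA decay factors and MAPK phosphatases. Its call, like that of Edn1, held when any single IM library was left out. Il1rn, the interleukin-1 receptor antagonist, went from 1191 and 451 TPM to 151 and 192 TPM (-2.51, adjusted p = 0.0494), 1 of 24 anti-inflammatory and resolution mediators; none of the 24 was called when any 1 of the 4 libraries was left out. Il10 was at 23.5 and 15.9 TPM and then at 23.7 and 12.4 TPM, and Tgfb1 at 104 and 67.0 TPM and then at 202 and 284 TPM (adjusted p = 0.0993); no anti-inflammatory mediator was called higher. Single calls among the TLR4 adaptors and immediate early genes were Irak2 (-1.90) and Ier3 (-2.06), of 21 and 19 tested; without single libraries the counts were 0, 1, 0 and 0, and 0 each time.

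Single effector enzymes and secreted proteins fell, where 1.12% of all genes were called lower. Ptges, the inducible prostaglandin E synthase, was at 32.1 and 13.6 TPM at 6h and at 2.78 and 2.32 TPM at 20h (log2 change -3.05, limma adjusted p = 0.00116). Ptgs2 changed by -1.71, and the pair made 2 of 11 lipid mediator enzymes. Among the 11, 5 others lay higher at 20h without overlap and were not called. Of all genes 59.4% had no overlap, both directions together. Without single libraries the lipid mediator count was 1, 1, 1 and 0. Nos2, the inducible nitric oxide synthase, went from 17.7 and 11.8 TPM to 3.08 and 3.15 TPM (-2.32, adjusted p = 0.00801), 1 of 11 metabolic effector enzymes, with 0, 1, 0 and 0 in the same order. Of 13 acute-phase and antimicrobial proteins, 3 were lower: the pentraxin Ptx3 (-3.02) and the serum amyloids Saa2 (-2.55) and Saa1 (-2.43), whose near-identical sequences can exchange reads. That count was 0, 1, 1 and 0 without single libraries and 0 at a pseudocount of 0.1 TPM. Much more abundant members fell short of the threshold. Saa3 was at 24538 and 11864 TPM at 6h and at 9083 and 6440 TPM at 20h (adjusted p = 0.361), and Lcn2, a siderophore-binding protein, at 20597 and 6916 TPM and then at 4840 and 4967 TPM (adjusted p = 0.230). Both remained far above 0h, where Saa3 was at 8.69 and 10.0 TPM and Lcn2 at 223 and 92.3 TPM.

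**Figure D2:**
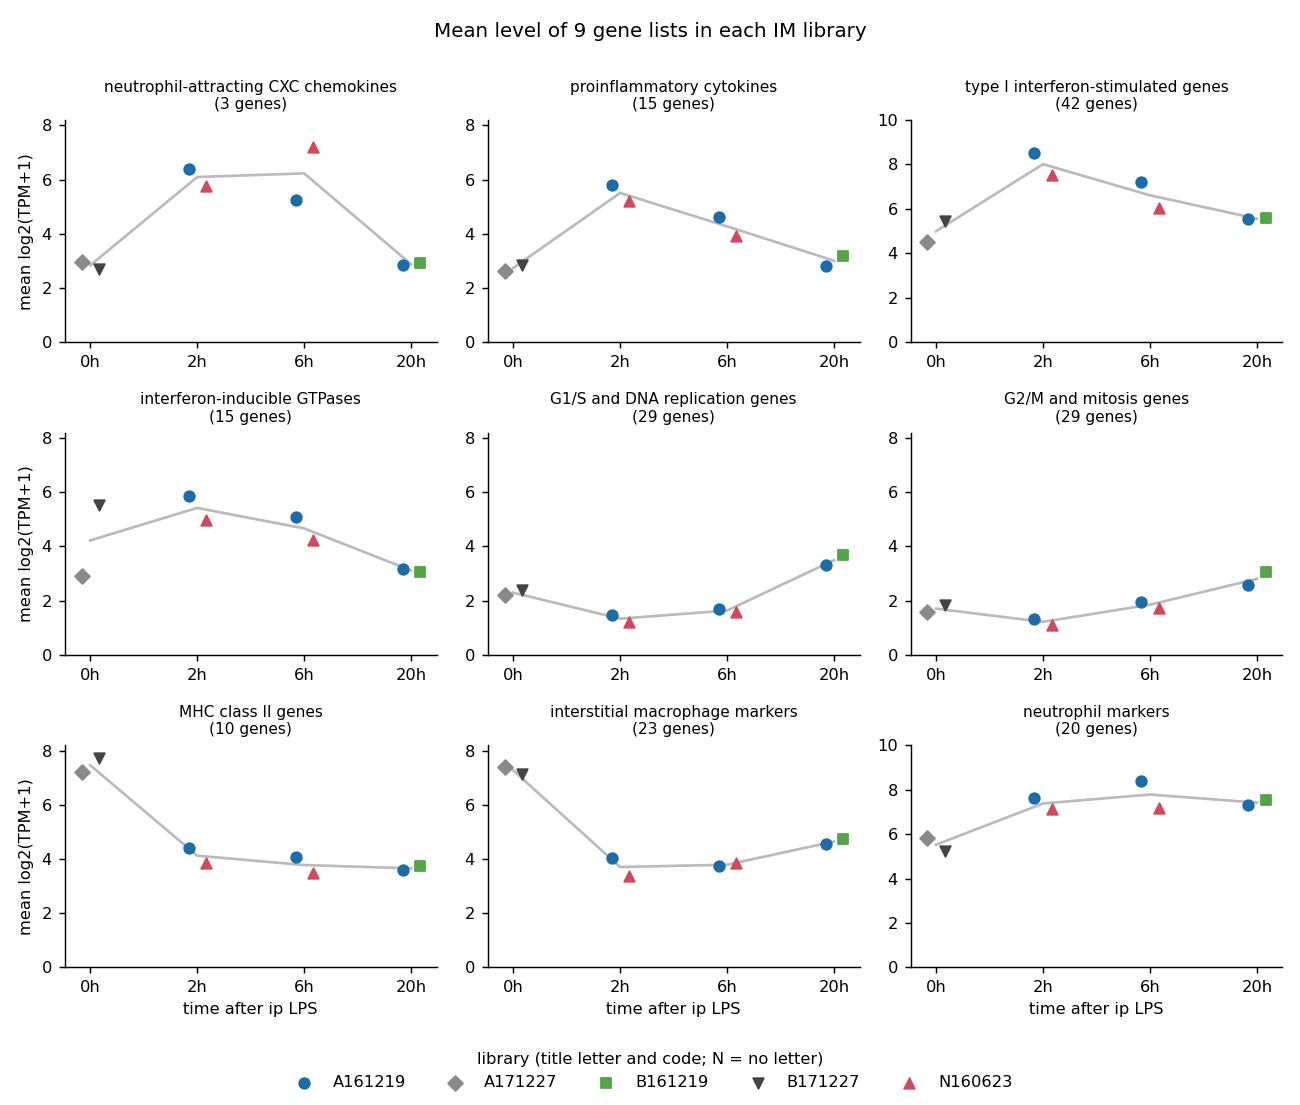
Mean log2(TPM+1) of 9 gene lists in each IM library at 0, 2, 6 and 20h after ip LPS; each symbol is 1 library and the line joins the means of the 2 libraries. Chemokine, cytokine and interferon lists are lower at 20h than at 6h, the 2 cell cycle lists are higher at 20h than at any other time, and MHC class II genes lie between 3.50 and 4.41 at 2, 6 and 20h.

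Of 42 type I interferon-stimulated genes tested, 6 fell, none rose and the rest did not pass, against 1.12% of all genes called lower. The median log2 change was -1.36 and the highest, that of Ifi27l2a, was -0.24, which is 0.17 before the median of all genes is subtracted. Isg20, an antiviral exonuclease, was at 887 and 328 TPM at 6h and at 67.5 and 107 TPM at 20h (log2 change -3.07, adjusted p = 0.00771). Ifit1, a sensor of foreign RNA caps, was at 1932 and 617 TPM at 2h, 453 and 130.2 TPM at 6h and 54.9 and 44.3 TPM at 20h (-2.69, adjusted p = 0.0229). Rsad2, which encodes viperin, went from 509 and 198 TPM to 61.9 and 62.5 TPM (-2.75, adjusted p = 0.0282). Ifit3b (-2.76), a near copy of Ifit3, Stat2 (-2.00) and Parp14 (-1.90) were the others. For each, 6h A161219 was the higher 6h library and both 20h libraries lay below the lower one. Over all genes, 59.4% had no overlap between the times, both directions together. Isg15 went from 860.5 and 316 TPM to 177 and 188 TPM (adjusted p = 0.160). Irf7 went from 1358 and 477 TPM to 492 and 632 TPM, with overlapping libraries. The list's mean log2(TPM+1) was 7.19 and 6.03 at 6h and 5.54 and 5.58 at 20h, against 4.53 and 5.46 at 0h. Calls numbered 0, 5, 0 and 0 when 6h A161219, 6h N160623, 20h A161219 or 20h B161219 was left out, and 19 under quantile normalization or with the title code as a covariate.

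Of 15 interferon-inducible GTPases, which guard against vacuolar pathogens, 3 were lower and none higher (median -2.13), against 1.12% of all genes called lower. Gbp2 was at 517 and 226 TPM at 6h and at 36.7 and 35.2 TPM at 20h (log2 change -3.63, SE 0.94, adjusted p = 0.0494). Its 0h libraries were at 24.9 and 299.8 TPM, 1 below the 20h values and 1 between those of 6h. Gbp5 changed by -3.52 and Gbp3 by -3.04. Calls numbered 0, 2, 0 and 0 in the same order of left-out libraries; the title code covariate gave 7. Nlrc5, the transactivator of MHC class I genes, went from 36.1 and 25.6 TPM to 7.39 and 8.68 TPM (-2.22, adjusted p = 0.00798), the only call among 20 MHC class I and immunoproteasome genes.

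The interferon-stimulated response element (GAAA, any 2 bases and GAAA, on either strand) was searched in the same 250 bases. It was found in 15 of 31 interferon-stimulated genes with a window (48.4%) and in 9 of 10 interferon-inducible GTPases (90.0%), against 18.1% of the called-lower genes, 3.8% of the tested genes and 3.0% of all windows. An example of each is shown, with the element as read on the opposite strand in capitals.
Ifit1, chr19:34640729-34640888, plus strand: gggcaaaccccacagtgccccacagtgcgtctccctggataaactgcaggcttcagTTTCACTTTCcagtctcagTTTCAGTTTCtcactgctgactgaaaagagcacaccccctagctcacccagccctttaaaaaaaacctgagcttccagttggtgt
Gbp2, chr3:142620503-142620662, plus strand: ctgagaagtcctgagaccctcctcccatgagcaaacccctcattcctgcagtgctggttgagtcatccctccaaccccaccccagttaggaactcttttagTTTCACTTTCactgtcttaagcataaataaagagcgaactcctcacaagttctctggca
Ifit1 held 2 matches, the first starting 104 bases before the start site, and Gbp2 held 1, starting 59 bases before it.

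**Figure D3:**
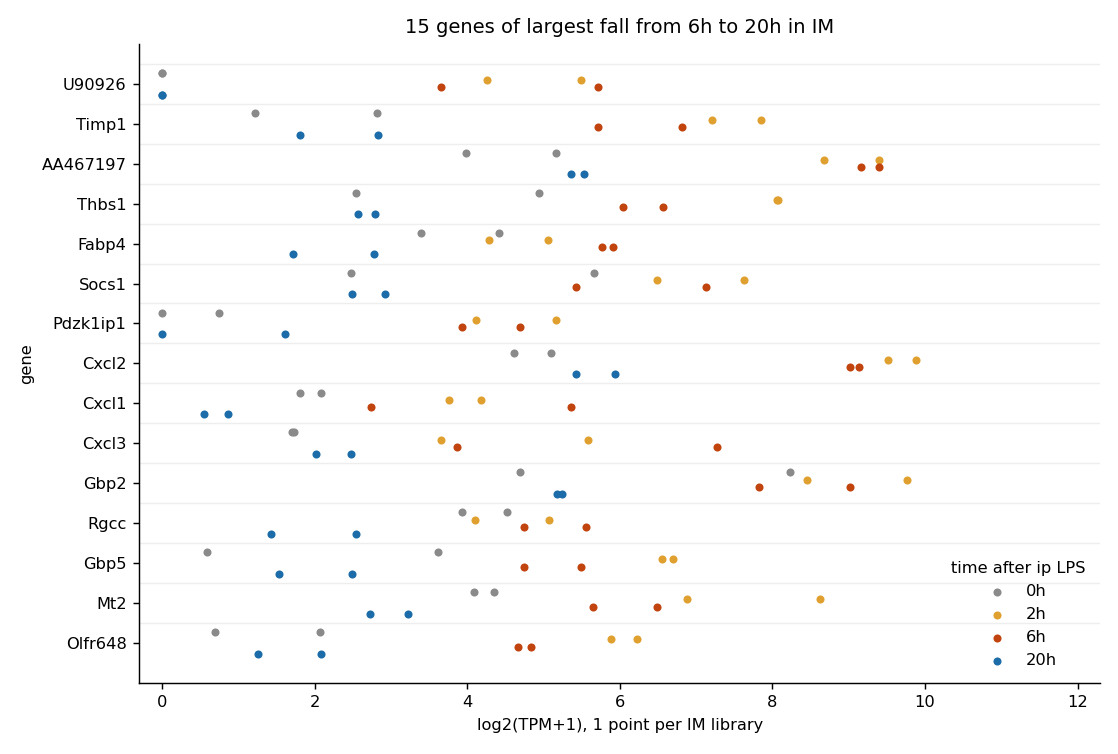
The 15 genes of largest called fall from 6h to 20h in IM: log2(TPM+1) of each library, 1 point per library, coloured by time. Both 20h points (blue) of each gene lie to the left of both 6h points (red), which the choice of these genes required. Most 20h points lie near the 0h points (grey).

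Several of the steepest falls were outside the cytokine lists. Timp1, an inhibitor of matrix metalloproteinases, was at 111 and 51.5 TPM at 6h and at 2.50 and 6.11 TPM at 20h (log2 change -4.36, SE 0.58, adjusted p = 0.000665). AA467197, which encodes a small mitochondrial protein, went from 571 and 672 TPM to 45.1 and 40.0 TPM (-4.25, adjusted p = 0.00049). Thbs1, the matrix protein thrombospondin-1, went from 93.7 and 65.1 TPM to 4.90 and 5.92 TPM (-4.04, adjusted p = 0.00798). The libraries of each pair were close to each other compared with the distance between times. U90926 was at 51.2 and 11.6 TPM at 6h and listed at 0 in both 20h and both 0h libraries (adjusted p = 8.2e-05). Mt2, a metallothionein, went from 49.3 and 88.8 TPM to 5.58 and 8.35 TPM (-3.51, adjusted p = 0.00560), the only call among 13 glucocorticoid-induced genes. Rgcc changed by -3.58, Pdzk1ip1 by -3.92 and Olfr648 by -3.50.

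Of 25 tissue repair and matrix genes, 5 were lower and none higher: Timp1, Thbs1, Ctsk, Mmp19 and F10. Over all genes, 1.12% were called lower. Mmp19, a matrix metalloproteinase, went from 25.4 and 21.2 TPM to 3.75 and 3.83 TPM (log2 change -2.75, adjusted p = 0.00966), and F10, coagulation factor X, from 289 and 161 TPM to 54.9 and 52.6 TPM (-2.40, adjusted p = 0.00773). Ctsk, the protease cathepsin K, was at 2.56 and 74.1 TPM at 6h, so its value rested on N160623. The same library was the higher 6h one for F7 (12.2 and 41.8 TPM), and for Marco (1.94 and 41.3 TPM), both AM markers. Fabp4, a fatty acid carrier of AM and some monocytes, went from 53.6 and 59.2 TPM to 5.86 and 2.27 TPM (-4.01, adjusted p = 0.00116). The part of AM transcripts in these values was not tested. With a single library left out, 1 to 4 genes of the list were called lower. Fth1, the ferritin heavy chain and one of the most abundant transcripts of these cells, went from 17506 and 11462 TPM to 3467 and 4127 TPM (-2.32, adjusted p = 0.0266), next to 4770 and 3619 TPM at 0h. Fth1 was not called after quantile normalization, with no filter or in the fits of the 8 or of the 4 IM libraries. Its opposite in iron handling, the transferrin receptor Tfrc, rose from 1.75 and 1.65 TPM to 6.08 and 7.54 TPM (1.11, adjusted p = 0.0117).

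Of 29 G1/S and DNA replication genes tested, from a list of 36, 23 were higher at 20h and none lower, against 3.58% of all genes, with a median log2 change of 1.56. Their mean log2(TPM+1) was 1.69 and 1.58 at 6h and 3.31 and 3.69 at 20h, above the 2.21 and 2.38 of 0h and the 1.46 and 1.21 of 2h. All 6 subunits of the MCM2-7 helicase, which opens the DNA at origins, were called. Mcm5 was at 1.37 and 1.91 TPM at 6h and at 15.2 and 28.7 TPM at 20h, against 1.78 and 1.54 TPM at 0h (log2 change 2.64, SE 0.33, adjusted p = 2.27e-05). Mcm6 went from 2.89 and 1.78 TPM to 19.5 and 22.6 TPM (2.33, SE 0.46, adjusted p = 0.00185), and Mcm3 from 3.67 and 3.57 TPM to 21.4 and 25.2 TPM (1.98, adjusted p = 0.00421). In each of these the 20h libraries were well above every earlier IM library. Mcm2 changed by 2.08, Mcm7 by 1.66 and Mcm4 by 1.55.

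Other steps of S phase were represented. Rrm2 and Rrm1, the subunits of ribonucleotide reductase, changed by 2.07 (adjusted p = 0.000648) and 1.81 (adjusted p = 0.00116). Rrm2 was at 1.08 and 1.38 TPM at 6h and at 10.9 and 12.03 TPM at 20h. Lig1, which joins Okazaki fragments, went from 1.42 and 1.09 TPM to 8.32 and 13.02 TPM (1.93, adjusted p = 0.000102), and Pold1, the catalytic subunit of DNA polymerase delta, from 1.18 and 1.04 TPM to 7.12 and 9.26 TPM (1.70, adjusted p = 0.000665). The regulators E2f1 (1.34), Ccne1 (1.33), Cdt1 (0.93) and Uhrf1 (1.47) were called too. Pcna, the sliding clamp, was at 15.5 and 10.99 TPM and then at 23.5 and 29.4 TPM (0.54, adjusted p = 0.172), and Slbp, Rpa2, Prim2, Tk1 and Ccne2 also did not pass. None of the 29 exceeded 29.4 TPM in any IM library. Calls in the list numbered 9 without 6h A161219, 9 without 6h N160623, 11 without 20h A161219 and 4 without 20h B161219, and 12 to 26 in the other alternatives except a filter at a mean of 10 TPM, which kept 4.

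**Figure D4:**
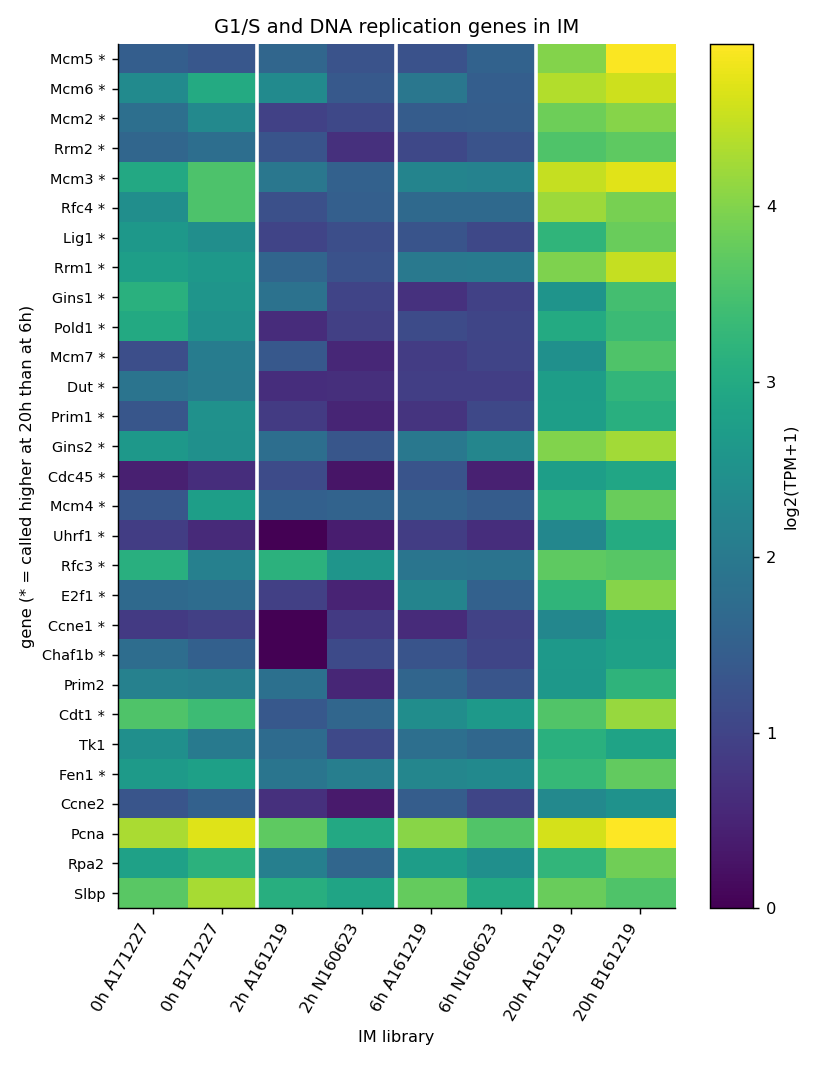
Colour map of log2(TPM+1) of the 29 G1/S and DNA replication genes (rows, ordered by change) in the 8 IM libraries (columns, white lines between times); stars mark the 23 genes called higher at 20h. Both 20h columns are brighter than the 2h and 6h columns in nearly every row, and brighter than 0h for the MCM genes at the top.

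Promoters of 2 helicase genes that rose and that hold the E2F motif are shown. The E2F motif, spelled TTTGGCGC, TTTCCCGC, TTTCGCGC or TTTGCCGC on either strand, was found in 5 of the 24 list genes with a window (20.8%), in 7.6% of the 264 called-higher genes with one, in 4.0% of the 7082 tested genes with one and in 1.9% of all windows. Capitals mark it below, and overlapping matches on both strands form 1 run.
Mcm5, chr8:75109349-75109508, plus strand: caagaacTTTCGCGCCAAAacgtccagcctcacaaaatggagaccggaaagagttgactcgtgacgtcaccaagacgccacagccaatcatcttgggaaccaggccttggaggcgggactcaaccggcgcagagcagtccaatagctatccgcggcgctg
Mcm6, chr1:128359706-128359865, minus strand: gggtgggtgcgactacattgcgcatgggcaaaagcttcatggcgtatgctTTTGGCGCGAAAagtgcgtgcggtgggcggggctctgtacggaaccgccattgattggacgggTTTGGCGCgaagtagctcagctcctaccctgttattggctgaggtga
Mcm5 held 2 overlapping matches, the first starting 153 bases before the start site, and Mcm6 held 3, the first starting 110 bases before it. Among other called helicase genes with a window, Mcm7 held 1 match, and Mcm2 and Mcm3 held none.

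Genes of G2 and mitosis moved less. Of 29 tested, 7 were higher and none lower, against 3.58% of all genes called higher, with a median log2 change of 0.60. Aurkb, a mitotic kinase, went from 0.857 and 1.42 TPM to 8.09 and 12.2 TPM (1.95, adjusted p = 0.00130). Top2a, the topoisomerase that untangles sister chromatids, went from 4.40 and 3.51 TPM to 9.67 and 11.3 TPM (0.80, adjusted p = 0.0320), and Birc5, Prc1, Ndc80, Ccna2 and Cdca8 were the other calls. Mki67, the proliferation marker, was at 4.17 and 5.29 TPM and then at 7.65 and 8.77 TPM (0.27, adjusted p = 0.288). Cdk1 and Ccnb2 did not pass either, and Ccnb2 overlapped between times. Calls numbered 2, 1, 5 and 0 without 6h A161219, 6h N160623, 20h A161219 and 20h B161219. Hist1h1b, a replication-dependent linker histone outside both lists, went from 5.93 and 9.40 TPM to 49.4 and 40.7 TPM (2.02, adjusted p = 0.00561).

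Some transcripts of tissue macrophages that were low at 6h were higher at 20h, without reaching their 0h levels. Folr2, the folate receptor of perivascular macrophages, was at 186 and 185 TPM at 0h, 1.25 and 1.34 TPM at 6h and 21.3 and 26.4 TPM at 20h (log2 change 3.01, SE 0.82, adjusted p = 0.0225). Selenop, a secreted selenium carrier, was at 1061 and 912 TPM at 0h, 26.8 and 19.0 TPM at 6h and 112 and 164 TPM at 20h (2.12, adjusted p = 0.0132). Cx3cr1 went from 1.61 and 0.947 TPM to 8.67 and 13.9 TPM (2.00, adjusted p = 0.0151) and the tetraspanin Cd81 from 4.22 and 6.33 TPM to 23.6 and 37.1 TPM (1.89, adjusted p = 0.0229). At 20h all 4 were above both 6h libraries and below both 0h libraries. They rose in iMo too, by 2.60 for Folr2, 1.88 for Selenop, 2.44 for Cx3cr1 and 2.67 for Cd81. The 0h libraries carry another title code than those after ip LPS, so time and code cannot be told apart in any comparison with 0h.

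The largest changes of the whole comparison by size, among genes higher at 20h, were those of the complement subunits C1qa, C1qb and C1qc, which were chosen after their values were seen. C1qa was at 1077 and 973 TPM at 0h, 18.1 and 33.9 TPM at 6h and 324 and 328 TPM at 20h. C1qb went from 79.9 and 87.8 TPM to 1039 and 952 TPM, and C1qc from 20.5 and 24.7 TPM to 405 and 352 TPM. Their 20h libraries agreed within each pair and stood far above the 6h ones. In the fit of 27 libraries they did not pass (log2 changes 3.25, 3.14 and 3.60, adjusted p = 0.0670, 0.0887 and 0.0610). That fit shares 1 estimate of spread per gene over all groups, and the 2 AM libraries of 20h were at 149 and 1.60 TPM for C1qa, so AM A161219 stood apart. Without that library, an alternative added after seeing the data, the adjusted p was 0.0120, 0.00809 and 0.00233. In the fit of the 8 IM libraries it was 0.00752, 0.00752 and 0.00656. It was 0.127, 0.158 and 0.107 when the title code was a covariate and 0.105, 0.113 and 0.0891 after quantile normalization. Without 1 of the 4 IM libraries it ran from 0.170 to 0.424 over the 3 genes.

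Of 23 IM markers tested, 3 were higher (Folr2, Cx3cr1 and Cd81) and none lower, against 3.58% of all genes called higher. The list's median log2 change was -0.03, near that of all genes. For the calls of higher IM markers, the alternatives were as follows. Without AM 20h A161219 the count was 6. It was 0, 0, 1 and 0 when 6h A161219, 6h N160623, 20h A161219 or 20h B161219 was left out. Lyve1, Retnla, Pf4 and Ccl8 were not called, and stayed low: Pf4 was at 921 and 594 TPM at 0h, 4.60 and 42.8 TPM at 6h and 12.1 and 10.5 TPM at 20h, and Ccl8 at 308 and 231 TPM, then 0.663 and 6.58 TPM, then 0.868 and 3.03 TPM. Batf3, a transcription factor of dendritic cells and some macrophages, went from 7.11 and 6.12 TPM to 24.9 and 31.5 TPM (1.52, adjusted p = 0.0425). It was the 1 call among 26 lineage transcription factors. After quantile normalization, or with the title code or neutrophil score as a covariate, Batf3 was not called.

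MHC class II genes stayed low. None of the 10 tested was called in either direction by limma, and none had an unadjusted p under 0.05 either. H2-Ab1 was at 2587 and 4200 TPM at 0h, 132 and 99.9 TPM at 6h and 95.7 and 110.0 TPM at 20h, and Cd74, the invariant chain, at 4228 and 6990 TPM, then 479 and 184 TPM, then 213 and 235 TPM. Ciita, the master transactivator of these genes, was at 22.0 and 37.5 TPM at 0h, 2.85 and 1.34 TPM at 6h and 0.156 and 1.22 TPM at 20h (-1.32, adjusted p = 0.310). The list's mean log2(TPM+1) was 7.21 and 7.72 at 0h, 4.06 and 3.50 at 6h and 3.58 and 3.74 at 20h.

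Some markers of nonclassical monocytes, the patrolling subset of blood, were among the genes that rose. Of 12 tested, 5 were higher (Ace, Cx3cr1, Cd300e, Adgre4 and Eno3) and 1 lower (Fabp4), against 3.58% of all genes higher and 1.12% lower. The list's median log2 change was 0.18, near that of all genes. In iMo that median was 1.25, with changes of 2.73 for Ace, 2.44 for Cx3cr1, 2.96 for Cd300e and 1.78 for Adgre4. Ace, the angiotensin-converting enzyme, was at 61.7 and 88.8 TPM at 0h, 4.63 and 6.96 TPM at 6h and 34.1 and 36.8 TPM at 20h (log2 change 2.03, adjusted p = 0.00424). Cd300e, an activating receptor, was at 15.3 and 14.8 TPM at 0h, 17.1 and 8.96 TPM at 6h and 52.7 and 56.8 TPM at 20h (1.64, adjusted p = 0.0199), and Adgre4, an adhesion receptor, went from 16.7 and 9.52 TPM to 52.5 and 50.6 TPM (1.53, adjusted p = 0.0187). The last 2 were thus above 0h as well, while Ace was below it. Spn, another marker, was at 21.0 and 24.1 TPM and then at 28.9 and 35.0 TPM (adjusted p = 0.484). Of 13 classical monocyte markers none was called by limma, and 3 had an unadjusted p under 0.05; Ly6c2 was at 1404 and 452 TPM and then at 1184 and 1505 TPM. Calls among higher nonclassical markers numbered 2, 1, 3 and 0 in the same order of left-out libraries.

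The other large rises came from varied genes. Gstp1, a glutathione transferase with a near-identical neighbour, Gstp2, that could share its reads, went from 13.2 and 7.40 TPM to 83.7 and 151 TPM (log2 change 2.96, SE 0.55, adjusted p = 0.00126), above the 25.9 and 38.3 TPM of 0h. Marco, a scavenger receptor for bacteria, was at 1.94 and 41.3 TPM at 6h and at 145 and 53.9 TPM at 20h (2.59, adjusted p = 0.0296), so its libraries differed within both times. Abcg3, an ABC transporter, went from 4.22 and 1.88 TPM to 17.0 and 32.0 TPM (2.24, adjusted p = 0.00301). Nme4, a mitochondrial nucleoside diphosphate kinase, changed by 2.32, the p53 target Phlda3 by 2.06, the scaffold protein Mpp6 by 2.05 and the adhesion molecule Icam2 by 2.05. Of 20 efferocytosis receptors and bridging molecules, which serve the uptake of dying cells, Marco and the integrin Itgb5 were higher and Thbs1 lower.

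Few genes of metabolic, housekeeping and some immune groups were called, where 4.7% of all genes were. Over all 8937 genes, 2108 had an unadjusted p under 0.05 by limma. Libraries of the 2 times did not overlap in 59.4% of all genes, both directions together. None of 39 respiratory chain subunits was called, with 14 at an unadjusted p under 0.05 and a median log2 change of 0.45. In 33 of them both 20h libraries lay above both 6h libraries. None of 17 cholesterol synthesis genes was called, with 5 at an unadjusted p under 0.05 and a median of -1.02; in 9 both 20h libraries lay below both 6h libraries and in none above. Glycolysis (19 genes, 2 unadjusted), the LXR targets (14 genes, 1 unadjusted), the unfolded protein response (22 genes, 1 unadjusted), inflammasome genes (19 genes, 3 unadjusted) and the Fc receptors and C-type lectins (22 genes, 2 unadjusted) had no call by limma either. Of 36 lysosomal genes 1 was higher (Man2b1, 0.73), and of 40 ribosomal proteins 1 (Rpl3, 0.88). Hmox1, the heme-degrading enzyme, was at 224 and 220.0 TPM at 6h and at 216 and 220.4 TPM at 20h, far above its 19.9 and 11.6 TPM at 0h.

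The change in iMo over the same times resembled that in IM. In iMo 360 genes were called (4.03%), 256 higher (2.86%) and 104 lower (1.16%). Across the 8937 genes the changes in IM and in iMo had a Pearson r of 0.672 and a Spearman rho of 0.631; the 2 comparisons share no library, but libraries of both carry the same title codes, and genes are not independent. Relative to each median, 402 of the 420 genes called in IM moved the same way in iMo (95.7%), against 73.1% of all genes. No gene had a difference of the change between IM and iMo that passed (0.0%; limma, 256 genes at an unadjusted p under 0.05, and 0 to 2 calls over the alternatives). The median change of the G1/S list was 1.68 in iMo. Its MCM levels began higher, with Mcm5 at 11.1 and 9.23 TPM at 6h and at 46.6 and 42.4 TPM at 20h in iMo A161219 and B161219.

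The CXCR2 chemokines were lower in iMo. There Cxcl2 was at 12.5 and 18.0 TPM at 6h and at 5.91 and 15.9 TPM at 20h, and Cxcl1 was listed at 0 in all 4 libraries. The difference of the Cxcl2 change, IM minus iMo, was -3.04 on the log2 scale (SE 0.86, adjusted p = 0.964), which did not pass. Il1a was at 2.15 and 1.24 TPM and then at 4.63 and 3.27 TPM in iMo (difference -4.01, adjusted p = 0.445).

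In AM, 3 genes were called between 6h and 20h, all lower (0.0336%). The changes in AM and IM had a Pearson r of 0.079 and a Spearman rho of -0.029 across genes, and 226 of the 420 genes called in IM moved the same way in AM (53.8%), against 47.0% of all genes. The difference of the change, IM minus AM, passed for 35 genes (0.392%), 28 of them higher (0.313%) and 7 lower (0.0783%) in IM relative to AM. Over all genes that difference had a median of 0.55, which was not subtracted before testing. After quantile normalization its median was 0.033, and 102 genes were higher and 98 lower. In the fit without that normalization Mcm5 had the smallest p. In AM it was at 17.1, 14.2 and 8.86 TPM at 6h (A161219, B161219 and N160623) and at 11.6 and 11.1 TPM at 20h (A161219 and N160623), a range within which the times overlap. The difference was 2.68 on the log2 scale (SE 0.45, adjusted p = 0.00178). Without AM 20h A161219 only Mcm5 of the 35 passed (adjusted p = 0.0167). For Mcm5 the call held under every alternative that tested it. Without single IM libraries 2 to 11 genes passed.

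**Figure D5:**
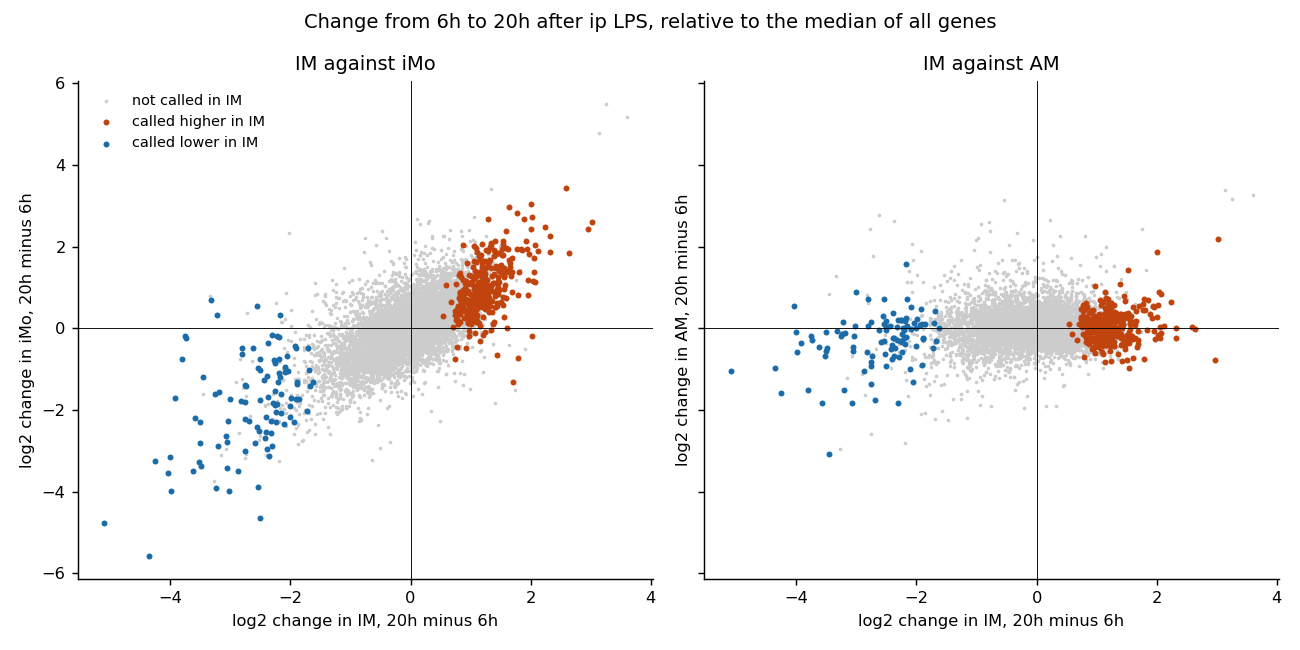
Log2 change from 6h to 20h of 8937 genes in IM (x axis) against iMo (left) and AM (right), each relative to its median. Genes called in IM (orange higher, blue lower) fall along the diagonal with iMo (r 0.672) and spread around 0 with AM (r 0.079).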

How the data were processed

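Low-input RNA-seq libraries of sorted mouse lung cells were deposited as 1 table of TPM values per gene. The authors' upstream steps used STAR, HOMER and the mm10 build, per the submitters' processing notes; the sources used here give neither versions nor parameters. Deposited TPM values carry no read counts, so depth is unknown and no count test or counting interval was made.

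Values were taken as log2(TPM+1) in R 4.3.3 and fitted with limma 3.58.1, 1 coefficient for each of 12 groups over the 27 libraries of 0h and ip, with a mean-variance trend. A gene entered the test if 2 or more libraries reached 5 TPM, and calls were made at a Benjamini-Hochberg adjusted p under 0.05 over all 8937 genes. The contrasts were IM 20h against 6h and its difference from the same contrast in iMo and in AM. The 18 nasal columns were left out because their row names did not match their values: Pearson r with the other libraries was 0.01 to 0.025, against 0.757 to 0.989 among those.

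Named genes were the 15 of largest change in each direction among called genes whose 6h and 20h libraries did not overlap and whose higher group averaged 10 TPM or more, up to 4 per direction in each of 45 lists, and the 6 of smallest p for each difference; other genes of the lists are given as values. The comparison, the lists (33 of the response and 12 of markers) and the rules were chosen with earlier results of these data known. The series text names a later last time than the labels' 20h, which is used here. Alternatives changed the pseudocount, filter, scaling, samples fitted, covariates, variance model and weights. On simulated data with 200 of 8937 genes changed, the fit recovered 0.5% of 2-fold, 66.5% of 4-fold and 95.5% of 8-fold changes. False calls numbered 0, 8 and 12. The changed genes were drawn only from those above a set mean level in IM at 0h and 6h. Recovery of genes at lower levels was not simulated. Noise was drawn separately for each gene and library, so shifts shared by a whole library were not simulated either. Recovery and false calls in the real libraries may therefore differ.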

Additional observations from a re-analysis of the deposited data

Results flagged for a closer look

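The change from 6h to 20h differed between IM and AM in 35 genes by the test of the difference itself (limma, adjusted p under 0.05). The 6 of smallest p with a mean of at least 10 TPM in a group were Gstp1, Mcm5, Rcc2, Grwd1, Ccrl2 and Lig1. Differences are log2, IM minus AM, relative to the median of all genes. That median, 0.55, was not subtracted before testing.

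Gstp1, the glutathione transferase, had a difference of 3.76 (SE 0.74, adjusted p = 0.0220): in AM it was at 26.3, 30.5 and 16.4 TPM at 6h and at 10.2 and 13.9 TPM at 20h. Mcm5, the helicase subunit, had a difference of 2.68 (SE 0.45, adjusted p = 0.00178). Lig1, the DNA ligase of replication, had a difference of 1.40 (SE 0.40, adjusted p = 0.0382), with 9.48, 8.56 and 7.70 TPM and then 11.1 and 12.1 TPM in AM. Rcc2, a regulator of chromosome condensation, was at 4.47 and 5.94 TPM at 6h and at 21.8 and 27.6 TPM at 20h in IM, and at 22.3, 15.7 and 17.7 TPM and then 12.6 and 14.8 TPM in AM, a difference of 1.90 (SE 0.44, adjusted p = 0.0220). Grwd1, a histone-binding protein, averaged 2.97 TPM at 6h and 15.01 TPM at 20h in IM, and was at 12.1, 12.7 and 8.96 TPM and then 4.66 and 6.74 TPM in AM, a difference of 2.34 (SE 0.56, adjusted p = 0.0382). For all 5 the AM levels at 6h were above those of IM at 6h.

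Ccrl2, a chemerin-binding receptor, went the other way, with a difference of -3.89 (SE 0.68, adjusted p = 0.0382). In IM it was at 96.6 and 44.0 TPM at 6h and at 8.76 and 11.3 TPM at 20h, and in AM at 4.08, 5.33 and 4.02 TPM and then 11.6 and 5.62 TPM. Without AM 20h A161219, the adjusted p was 0.0167 for Mcm5, 0.150 for Gstp1 and Rcc2, 0.162 for Grwd1 and Lig1 and 0.182 for Ccrl2.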

How the results depend on the processing

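The number of genes called between IM 6h and 20h was 266 with a pseudocount of 0.1 TPM, 146 with no filter, 177 with a filter at a mean of 10 TPM, 685 after quantile normalization, 1305 after rescaling without Rn45s and Lars2, 188 in a fit of the 8 IM libraries, 1105 in a fit of the 4 and 1008 with array weights. It fell when any 1 of the 4 IM libraries compared was left out, to 13 at the lowest, without 20h B161219. The number stayed at 420 without AM 20h A161219, which is not one of those 4. It was 410 to 499 with a pseudocount of 5 TPM, the title code or neutrophil score as a covariate, or no variance trend; with the title code 194 were lower, against 100, and 298 higher, against 320. For the difference between IM and iMo, 2 genes were called with a pseudocount of 0.1 or 5 TPM or the title code, and 0 to 1 without 1 library. For IM and AM the count was 4 and 62 with those pseudocounts, 1 with no filter, 17 at a mean of 10 TPM, 200 after quantile normalization, 377 after rescaling, 54 with the title code, 512 with array weights, and 1 to 11 without 1 library. The causes of these changes in count were not tested.

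Of 78 named genes called, all kept their direction, and 9 to 42 kept their call without 1 IM library. Among genes not called, Ear6 reversed to 0.125 with the title code and ranged from -0.979 to 0.831 without 1 library, and Hbb-bs reversed to 0.156 and ranged from -1.651 to 0.627 (log2, median not subtracted). Leaving out AM 20h A161219 was chosen after seeing the data. No paired analysis was possible because the 6h and 20h IM libraries share only 1 title code with its letter.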

Other observations

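Of the genes called higher in IM at 20h, 3 further ones were chosen after their values were seen and stand for no group. Nle1 was at 1.91 and 1.84 TPM at 6h and at 8.53 and 10.1 TPM at 20h, Mybbp1a at 6.23 and 8.27 TPM and then 21.6 and 28.0 TPM, and Pa2g4 at 11.5 and 10.3 TPM and then 33.3 and 53.6 TPM. For each, both 20h libraries were above both 6h libraries.

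Of the genes not called for the difference between IM and iMo, 2 replication-dependent histones had opposite directions in the 2 cell types. Hist1h2bb was at 2.07 and 0.91 TPM at 6h and at 7.22 and 7.87 TPM at 20h in IM, and at 27.7 and 39.9 TPM and then 8.40 and 11.7 TPM in iMo (difference 3.25, limma adjusted p = 0.445). Hist2h2ac was at 2.16 and 1.19 TPM and then 9.45 and 11.5 TPM in IM, and at 16.3 and 20.9 TPM and then 5.87 and 10.8 TPM in iMo (difference 3.02, adjusted p = 0.445).

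The AM 20h library A161219 differed from the other AM 20h library in several transcripts. Il7r was at 32.2 TPM in it and at 0.50 TPM in the other, and Atf3 at 56.2 and 8.51 TPM. In IM the same genes went from 4.82 and 10.4 TPM to 0.69 and 0.48 TPM and from 22.3 and 14.0 TPM to 5.13 and 4.67 TPM.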
